A study of Homo sapiens with 24 samples.

Results

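The 9 genes MBOAT1, MBOAT2, MBOAT7, LPCAT1, LPCAT3, LPCAT4, LPGAT1, ABHD16A and ABHD12 encode enzymes that make, reacylate or break down lysophospholipids. They were chosen by function and by symbol, with earlier results of these data known. All 9 were found among the 25343 genes of the expression tables. RNA was measured in HCT116, a human colon cancer line, and A375, a human melanoma line. Each line was present as the wild-type parent and as 1 numbered PTDSS2 knockout line (PTDSS2-KO#3 in HCT116, PTDSS2-KO#54 in A375). Cells of each genotype received DMSO (vehicle) or 0.1 µM of the PTDSS1 inhibitor DS07551382 for 24 h. The 8 groups of 3 libraries gave 24 libraries. With 1 knockout line per parent, loss of PTDSS2 cannot be told apart from other differences between that line and its parent. Nothing in the labels ties the 3 replicates to separate cultures. The spread behind each p-value is that between libraries, and it may be technical.

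A phospholipid carries 2 fatty acids, and removal of 1 of them leaves a lysophospholipid. In the remodelling route known as the Lands cycle, phospholipases remove a fatty acid and lysophospholipid acyltransferases attach another, which sets how saturated or unsaturated a membrane is. ABHD16A and ABHD12 act on phosphatidylserine, the lipid that PTDSS1 and PTDSS2 make in the endoplasmic reticulum: ABHD16A releases lysophosphatidylserine from it, and ABHD12 degrades lysophosphatidylserine. MBOAT1 and LPCAT3 can put a fatty acid back onto lysophosphatidylserine.

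The libraries held between 6.21 and 11.69 times 1e6 counts (median 9.20). The shallowest group was the HCT116 knockout with inhibitor, at 6.21, 6.54 and 7.91. PTDSS2 stood at 27.7 to 33.0 TPM (transcripts per 1e6, scaled for gene length) in the HCT116 parent libraries and at 4.05 to 6.64 TPM in the HCT116 knockout libraries. In A375 it stood at 17.9 to 20.6 TPM in the parent and at 0.59 to 1.63 TPM in the knockout. Of 12 colon epithelium markers, 6 or 7 exceeded 1 TPM in each HCT116 group, and 2 or 3 did in each A375 group. Their summed level was 4279 to 5229 TPM in HCT116, against 296 to 404 TPM in A375. Most of it was keratin: KRT8, KRT18 and KRT19 averaged 2352, 1039 and 1112 TPM in the HCT116 parent with vehicle. KRT18 averaged 363 TPM in the A375 parent with vehicle. CDX1, CDH17, VIL1, LGALS4 and CEACAM5 averaged under 1 TPM in each HCT116 group. With vehicle, LGALS4 averaged 0 TPM in the HCT116 parent and 0.413 TPM in the A375 parent. Of 9 melanocyte lineage markers, 4 exceeded 1 TPM in each A375 group, and 2 or 3 did in each HCT116 group. Their summed level was 373 to 528 TPM in A375, against 17.3 to 28.0 TPM in HCT116. PMEL went the other way, averaging 2.78 TPM in the HCT116 parent with vehicle and 0.29 TPM in the A375 parent with vehicle. MLANA, TYR, TYRP1 and DCT averaged under 1 TPM in each A375 group. In bulk RNA, fewer cells of a type and less RNA per cell cannot be told apart.

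LPCAT1 and ABHD16A, the 2 members that rose most in the A375 knockout, are shown with the 250 bases before a RefSeq transcription start. The windows shown were chosen because each holds a short motif linked to stress-responsive or cAMP-responsive factors. RefSeq windows (assembly GRCh38.p14) were found for 8 of the 9 members. Capitals mark the motif match. In LPCAT1 the capitals, 30 to 23 bases before the start, are the reverse complement of the unfolded protein response element TGACGTGG, which also contains the CRE core TGACGT. In ABHD16A the capitals, 49 to 42 bases before the start, hold the CRE core on both strands in 2 overlapping matches.
LPCAT1 promoter, chr5:1523961-1524210, minus strand, 5′ to 3′: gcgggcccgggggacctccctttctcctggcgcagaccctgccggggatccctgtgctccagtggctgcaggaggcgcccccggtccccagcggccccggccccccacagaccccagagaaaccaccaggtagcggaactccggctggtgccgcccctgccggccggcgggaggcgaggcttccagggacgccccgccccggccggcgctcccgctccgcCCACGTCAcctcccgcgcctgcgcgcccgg
ABHD16A promoter, chr6:31703325-31703574, minus strand, 5′ to 3′: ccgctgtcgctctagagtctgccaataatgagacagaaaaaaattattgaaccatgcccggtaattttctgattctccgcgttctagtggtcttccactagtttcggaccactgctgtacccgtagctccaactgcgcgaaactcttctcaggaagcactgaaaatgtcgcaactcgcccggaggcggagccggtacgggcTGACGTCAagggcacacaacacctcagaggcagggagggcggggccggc
TGACGTGG, searched on both strands, occurred in 1 of the 11 member windows and in 0.612% of 35116 promoter windows of the same length. TGACGT occurred in 2 of the 11 member windows, those shown for LPCAT1 and ABHD16A, and in 7.10% of all windows. The other ABHD16A window, at 57.2% G and C, had no match. The GC box GGGCGG occurred in 10 of the 11 member windows, covering all 8 members with a window, and in 42.6% of all windows. The member windows were 55.6% to 84.0% G and C, against a median of 58% over all windows. Each match is a description of these letters only.

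Levels differed between the enzymes in much the same order in all groups. LPCAT1, which makes the disaturated phosphatidylcholine of lung surfactant among other lipids, averaged 74.4 ± 3.52 TPM (SD, n = 3) in the HCT116 parent and 72.4 ± 1.82 TPM in the A375 parent. It was the most abundant of the 9 enzymes in 7 of the 8 groups. MBOAT7, which attaches arachidonate to lysophosphatidylinositol, averaged 65.0 ± 1.97 TPM in the HCT116 parent and 64.8 ± 1.79 TPM in the A375 parent. LPCAT3, which places polyunsaturated fatty acids into phosphatidylcholine, phosphatidylethanolamine and phosphatidylserine, averaged 55.0 ± 2.08 and 46.8 ± 0.756 TPM. MBOAT1 was lowest in all 8 groups, at 7.38 ± 0.295 TPM in the HCT116 parent and 4.61 ± 0.732 TPM in the A375 parent, and MBOAT2, which acylates lysophosphatidylcholine and lysophosphatidylethanolamine, was next lowest in all 8. Among neighbours in the order, LPCAT4 and ABHD12, and LPGAT1 and ABHD16A, did not differ beyond their spread in the HCT116 parent with vehicle, and ABHD12 and MBOAT7 did not in the A375 parent with vehicle. All 9 members passed the count filter in both lines, and their expected counts ran from 62 for MBOAT1 to 2610 for LPCAT1.

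**Figure D1:**
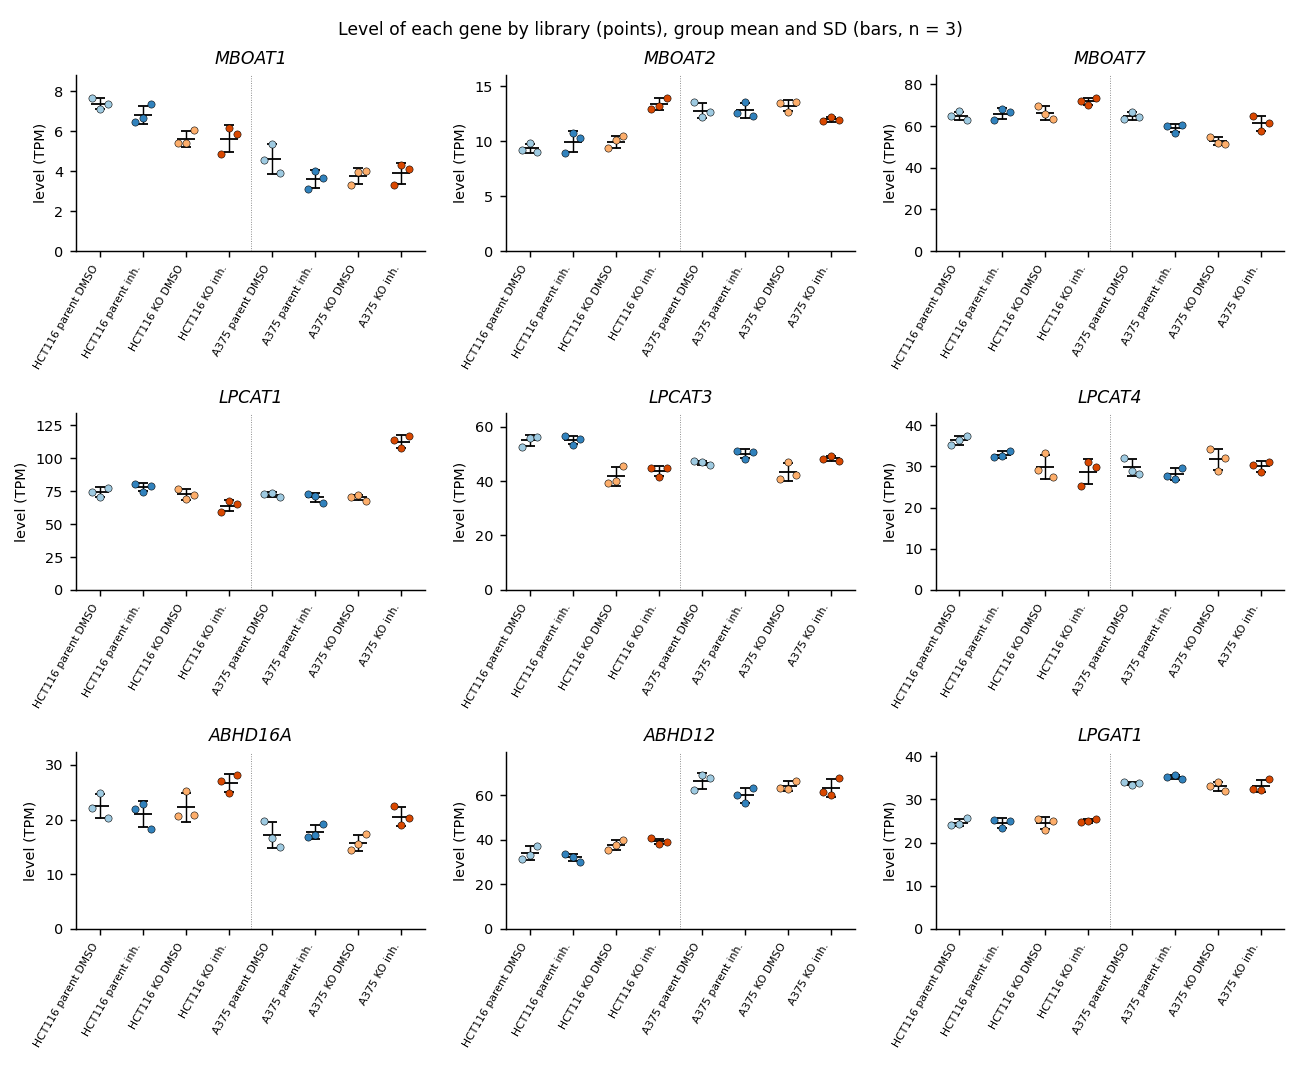
Level in TPM (vertical axis, from 0) of each of the 9 enzymes in the 24 libraries (points), with group mean and SD (bars, n = 3) for the 8 groups on the horizontal axis (KO, knockout; inh., inhibitor). LPCAT1 in the A375 knockout with inhibitor, at 107.6 to 116.7 TPM, sits above all other LPCAT1 libraries, and ABHD12 is higher in all A375 groups than in all HCT116 groups.

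The parent lines with vehicle differed in most of these enzymes. Comparing A375 with HCT116, 7 of 9 members passed an adjusted p of 0.05 in edgeR's quasi-likelihood test, 3 higher and 4 lower, against 81.8% of the 14637 genes tested (42.2% higher, 39.6% lower). ABHD12 stood at 62.0, 68.9 and 67.7 TPM in A375 and at 31.3, 33.0 and 37.3 TPM in HCT116. The libraries did not overlap, and ABHD12 was 2.04-fold higher in A375 (log2 difference 1.03 ± 0.066 (SE), edgeR adjusted p = 3.418e-27). LPGAT1, an acyltransferase named for its action on lysophosphatidylglycerol, was higher in A375 by 0.50 ± 0.044 on the log2 scale and MBOAT2 by 0.50 ± 0.093. MBOAT1 was lower by 0.63 ± 0.129, ABHD16A by 0.36 ± 0.106, LPCAT4 by 0.24 ± 0.082 and LPCAT3 by 0.18 ± 0.059, all on the log2 scale. LPCAT1 and MBOAT7 differed by 0.01 ± 0.043 and 0.05 ± 0.052 and did not pass. The median size of the difference was 0.36 over the 9 members and 0.68 over all genes.

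The inhibitor called none of the 9 enzymes in either parent line. In the HCT116 parent 0 of 9 passed, and 0% of the 13164 genes tested did. Of the 9, 0 had an unadjusted p under 0.05, against 530 of the 13164 genes, and DESeq2 and limma-voom called 0 of the 9. The log2 changes ran from -0.13 for LPCAT4 to 0.10 for MBOAT2. LPCAT4 stood at 35.1, 36.5 and 37.3 TPM with vehicle and 32.4, 32.5 and 33.7 TPM with inhibitor. The LPCAT4 libraries did not overlap, but its change of -0.13 ± 0.081 had an edgeR adjusted p of 0.9994. In the A375 parent 0 of 9 passed, against 0.104% of the 13455 genes tested (14 genes, 0.0372% higher and 0.0669% lower, and 9 genes without vehicle replicate 3). There 4 of the 9 had an unadjusted p under 0.05, against 884 of the 13455 genes, and DESeq2 and limma-voom called 0 of the 9. MBOAT1 had the change of greatest size, -0.32 ± 0.149, with libraries of 4.55, 5.37 and 3.91 TPM against 3.11, 4.02 and 3.67 TPM. The MBOAT1 groups overlapped, and its edgeR adjusted p was 0.7361. In the A375 parent the groups of MBOAT7 (-0.11 ± 0.051), LPCAT3 (0.11 ± 0.060) and LPGAT1 (0.08 ± 0.040) did not overlap. Their edgeR adjusted p were 0.7389, 0.7663 and 0.7578. How many of all genes tested had groups without overlap was not counted.

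In the knockout lines the inhibitor moved 3 of the 9 enzymes in each line. For HCT116 2 rose and 1 fell, or 33.3% of the members against 37.1% of all genes tested (17.1% higher, 20.1% lower). For A375 3 rose and none of the others passed, again 33.3%, against 37.5% of all genes (18.7% higher, 18.8% lower). The share of members called was near the background in both lines. The median size of the log2 change was 0.09 over the members and 0.17 over all genes in HCT116, and 0.13 and 0.17 in A375.

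**Figure D2:**
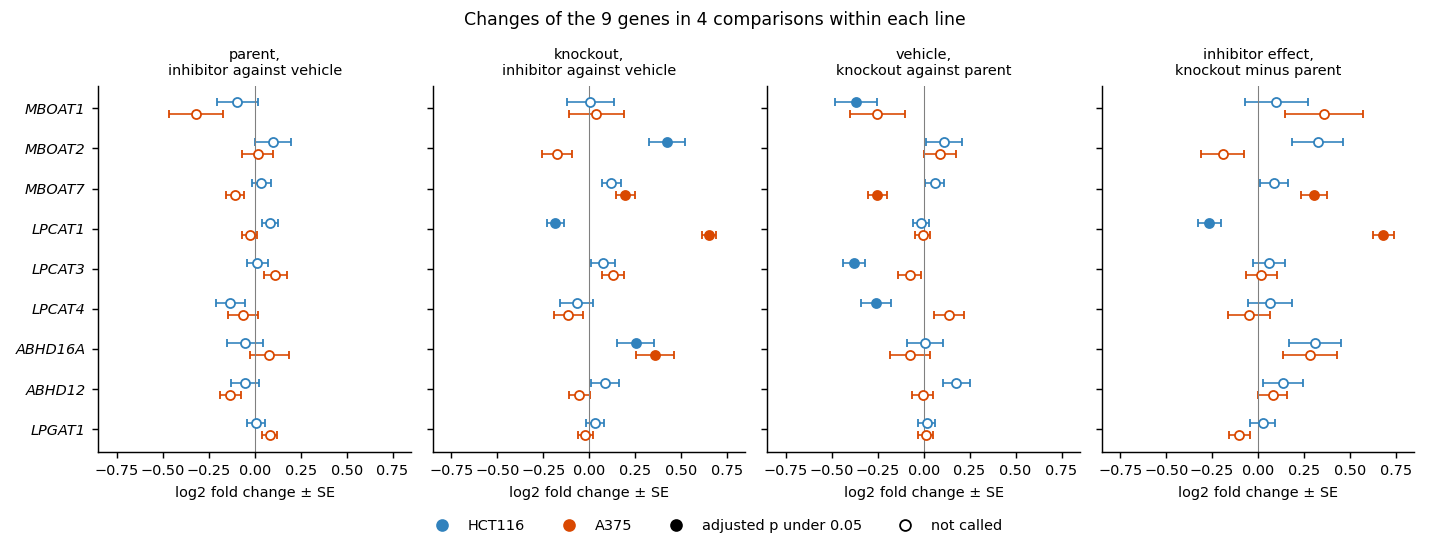
Log2 fold change ± SE (horizontal axis) of the 9 enzymes in 4 comparisons within HCT116 (blue) and A375 (orange), filled where the edgeR adjusted p was under 0.05. LPCAT1 is called in opposite directions in the 2 knockout lines with inhibitor, at -0.18 in HCT116 and 0.65 in A375, and no point is filled in the parents.

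LPCAT1 rose in the A375 knockout and fell in the HCT116 knockout. With vehicle the A375 knockout libraries held 70.9, 72.0 and 67.8 TPM of LPCAT1, and with inhibitor 113.9, 107.6 and 116.7 TPM. All 3 inhibitor libraries lay above the other 9 A375 libraries, which ran from 66.4 to 73.7 TPM. The rise was 1.57-fold (log2 change 0.65 ± 0.038, edgeR adjusted p = 2.82e-22), and 6.51% of the genes tested changed by more. Its level in the HCT116 knockout stood at 76.7, 68.8 and 72.4 TPM with vehicle and at 59.3, 67.3 and 65.5 TPM with inhibitor. The groups did not overlap, though the highest inhibitor library lay close to the lowest vehicle library. The fall was 1.14-fold (log2 change -0.18 ± 0.046, edgeR adjusted p = 0.0008641), and 47.2% of the genes tested changed by more. Both changes differed from the effect of the inhibitor in the parent of the same line: the difference, knockout minus parent, was 0.68 ± 0.056 in A375 (adjusted p = 1.865e-15) and -0.27 ± 0.062 in HCT116 (adjusted p = 0.0007182). The inhibitor effect in the A375 knockout exceeded that in the HCT116 knockout by 0.84 ± 0.060 (adjusted p = 3.006e-22). Knockout and parent with vehicle differed in LPCAT1 by -0.01 ± 0.043 in HCT116 and by -0.005 ± 0.041 in A375, and neither passed.

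MBOAT2 rose in the HCT116 knockout. Its libraries held 9.36, 10.1 and 10.4 TPM with vehicle and 12.9, 13.2 and 14.0 TPM with inhibitor. All 3 inhibitor libraries lay above the other 9 HCT116 libraries, which ran from 8.88 to 10.7 TPM. The rise was 1.34-fold (log2 change 0.42 ± 0.098, edgeR adjusted p = 0.0003395). The difference from the effect in the HCT116 parent was 0.32 ± 0.139 and did not pass (adjusted p = 0.07922), while without inhibitor replicate 2 of the parent it was 0.39 and passed (adjusted p = 0.04777). MBOAT2 in the A375 knockout stood at 13.5, 12.6 and 13.6 TPM with vehicle and at 11.8, 12.2 and 11.9 TPM with inhibitor. These groups did not overlap, and the change of -0.17 ± 0.082 did not pass (adjusted p = 0.08696). The inhibitor effect in the A375 knockout was lower than that in the HCT116 knockout by 0.59 ± 0.127 on the log2 scale (adjusted p = 0.0001657). The name LPCAT4 has also been used for MBOAT2, so the genes were told apart by Entrez identifier (129642 for MBOAT2, 254531 for LPCAT4).

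ABHD16A, the phosphatidylserine lipase, was called higher with inhibitor in both knockouts, while ABHD12, the lysophosphatidylserine lipase, was called in neither. ABHD16A in the A375 knockout stood at 14.4, 15.5 and 17.3 TPM with vehicle and at 18.9, 20.3 and 22.5 TPM with inhibitor, each from lowest to highest. The groups did not overlap, and the rise was 1.28-fold (log2 change 0.36 ± 0.102, edgeR adjusted p = 0.003457). Without vehicle replicate 1 it was 0.27 and did not pass (adjusted p = 0.05535). ABHD16A in the HCT116 knockout stood at 20.6, 25.2 and 20.9 TPM with vehicle and at 27.0, 24.9 and 28.1 TPM with inhibitor. The groups overlapped through vehicle replicate 2, and the log2 change was 0.25 ± 0.100 (adjusted p = 0.03911). That call did not hold in DESeq2 (adjusted p = 0.1223) or with no count filter (adjusted p = 0.0537). It was also lost without vehicle replicate 1 (0.19) or 3 (0.21), and without inhibitor replicate 1 (0.23) or 3 (0.22), at adjusted p of 0.1207 to 0.1818. Knockout minus parent, the ABHD16A effect was 0.31 ± 0.141 in HCT116 (adjusted p = 0.1024) and 0.28 ± 0.147 in A375 (adjusted p = 0.1602), so a difference from the parents was not shown, though without knockout vehicle replicate 2 it was 0.42 in HCT116 and passed (adjusted p = 0.02956). ABHD12 stood at 38.1 to 40.6 TPM with inhibitor and 35.2 to 40.0 TPM with vehicle in the HCT116 knockout, a change of 0.09 ± 0.076. For A375 these ranges were 60.2 to 67.8 TPM and 62.6 to 66.5 TPM, a change of -0.05 ± 0.056.

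The level of ABHD12 relative to ABHD16A separated the lines. The TPM ratio ranged over group means from 1.47 to 1.71 in HCT116 and from 3.08 to 4.09 in A375. Values in the A375 knockout were 4.39, 4.04 and 3.85 with vehicle and 2.73, 3.18 and 3.34 with inhibitor. These did not overlap, and the two-sided exact permutation p was 0.1, the smallest that 3 against 3 libraries allow. In the HCT116 knockout the ratio averaged 1.71 ± 0.207 with vehicle and 1.47 ± 0.076 with inhibitor and overlapped (exact permutation p = 0.3). The A375 parent averaged 3.93 ± 0.706 with vehicle and 3.38 ± 0.147 with inhibitor, a lower mean with overlap (exact permutation p = 0.4). The HCT116 parent averaged 1.52 ± 0.270 and 1.53 ± 0.113, also with overlap (exact permutation p = 0.9). Whether the change in this ratio differed between knockout and parent was not tested. The ratio of MBOAT1 to MBOAT2 averaged 0.565 ± 0.027 and 0.421 ± 0.046 in the HCT116 knockout, without overlap (exact permutation p = 0.1). The A375 parent also showed a lower ratio with inhibitor without overlap, at 0.362 ± 0.068 and 0.281 ± 0.029 (exact permutation p = 0.1). In the HCT116 parent the means were 0.790 ± 0.059 and 0.687 ± 0.058, with overlap (exact permutation p = 0.2). In the A375 knockout the ratio averaged 0.285 ± 0.035 and 0.324 ± 0.040 and overlapped (exact permutation p = 0.3).

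**Figure D3:**
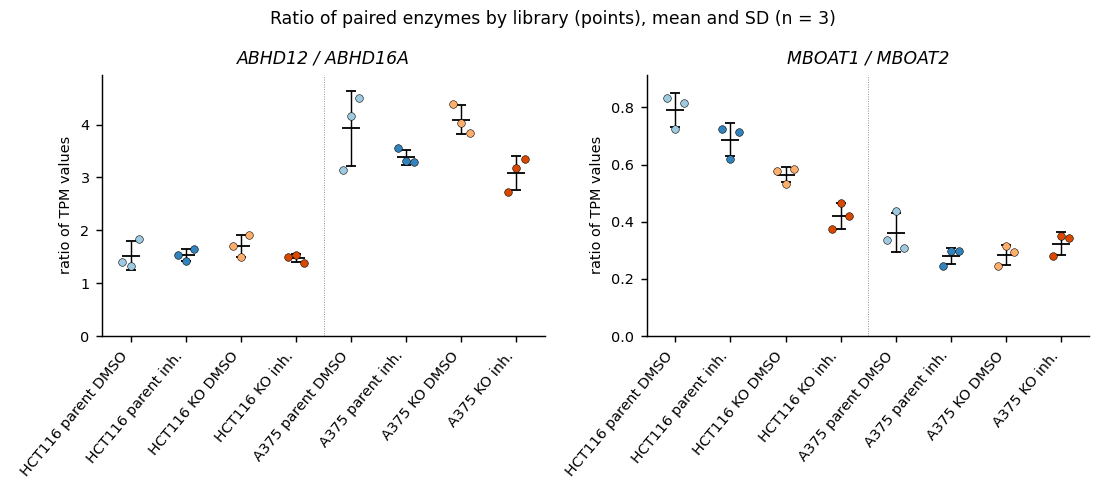
TPM ratio (vertical axis, from 0) of ABHD12 to ABHD16A and of MBOAT1 to MBOAT2 in each library (points) of the 8 groups, with mean and SD (bars, n = 3; KO, knockout; inh., inhibitor). The ABHD12 to ABHD16A ratio averages 3.08 or more in each A375 group and 1.71 or less in each HCT116 group.

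MBOAT7 moved in A375 with both the genotype and the inhibitor. With vehicle it stood at 63.4, 66.8 and 64.1 TPM in the A375 parent and at 54.9, 51.9 and 51.3 TPM in the A375 knockout. The groups did not overlap, and MBOAT7 was 1.19-fold lower in the knockout (log2 difference -0.25 ± 0.052, edgeR adjusted p = 0.0002233). With inhibitor the knockout libraries held 64.9, 57.7 and 61.6 TPM, all above the knockout vehicle libraries. This rise was 0.20 ± 0.051 (adjusted p = 0.001281), and it is measured against the same 3 knockout vehicle libraries as the genotype difference. In the A375 parent the inhibitor libraries held 60.1, 56.8 and 60.3 TPM, a change of -0.11 ± 0.051 that did not pass (adjusted p = 0.7389). The difference between these effects was 0.31 ± 0.072 (adjusted p = 0.0006888), and it uses the same A375 vehicle libraries as the genotype difference. MBOAT7 in the HCT116 knockout stood at 69.7, 65.9 and 63.3 TPM with vehicle and at 71.9, 70.0 and 73.7 TPM with inhibitor, without overlap. That change was 0.12 ± 0.054 and did not pass (adjusted p = 0.07207), and it passed without knockout vehicle replicate 1 (0.15, adjusted p = 0.04846). The inhibitor effect on MBOAT7 differed between the knockouts by 0.08 ± 0.075, which did not pass (adjusted p = 0.512).

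In the HCT116 knockout with vehicle, 3 acyltransferases were lower than in the parent. The 3 of 9 compare with 21.3% of all genes called, with 10.5% called higher and 10.8% called lower. LPCAT3, a known target of the sterol-sensing receptor LXR, stood at 52.6, 56.0 and 56.4 TPM in the parent and at 39.4, 40.1 and 45.6 TPM in the knockout. The groups did not overlap, and LPCAT3 was 1.30-fold lower (log2 difference -0.38 ± 0.060, edgeR adjusted p = 1.03e-06). With inhibitor it stood at 53.3 to 56.4 TPM in the parent and 41.6 to 44.9 TPM in the knockout. MBOAT1 stood at 7.68, 7.09 and 7.37 TPM in the parent and at 5.40, 5.39 and 6.08 TPM in the knockout, a difference of -0.37 ± 0.115 (adjusted p = 0.01456). LPCAT4, an acyltransferase also known as LPEAT2, stood at 35.1, 36.5 and 37.3 TPM in the parent and at 29.0, 33.2 and 27.4 TPM in the knockout, a difference of -0.26 ± 0.081 (adjusted p = 0.01442). None of these groups overlapped. The MBOAT1 and LPCAT4 calls were less firm: DESeq2 gave adjusted p of 0.08261 and 0.08184. The MBOAT1 call was lost without parent replicate 1 (-0.33) or knockout replicate 1 (-0.34) or 2 (-0.34), and the LPCAT4 call without parent replicate 2 (-0.25) or knockout replicate 1 (-0.23) or 3 (-0.20). ABHD12 differed by 0.18 ± 0.074 and did not pass (adjusted p = 0.07703), and it passed without parent replicate 3 (0.24, adjusted p = 0.03066) or knockout replicate 1 (0.23, adjusted p = 0.04299).

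In the A375 knockout with vehicle MBOAT7 was the 1 member of 9 called, against 16.3% of all genes (9.54% higher, 6.78% lower). LPCAT3 differed by -0.07 ± 0.062 and LPCAT4 by 0.14 ± 0.082, and neither passed. The genotype difference in A375 minus that in HCT116 was called for 3 of 9 members, against 17.7% of all genes (9.44% higher, 8.25% lower). It was -0.32 ± 0.075 for MBOAT7 (adjusted p = 0.0006568), 0.29 ± 0.086 for LPCAT3 (adjusted p = 0.009051) and 0.39 ± 0.117 for LPCAT4 (adjusted p = 0.01124). The LPCAT3 call was lost without HCT116 knockout replicate 1 or A375 knockout replicate 2 (0.24 in both fits), and the LPCAT4 call without HCT116 knockout replicate 3 (0.32) or A375 knockout replicate 1 (0.33).

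The inhibitor effect, knockout minus parent, was called for 1 of 9 members in HCT116 (LPCAT1), against 24.9% of all genes (11.1% higher, 13.8% lower), and for 2 of 9 in A375 (LPCAT1 and MBOAT7), against 27.3% (13.3% higher, 14% lower). Between the knockouts it was called for 2 of 9 (LPCAT1 and MBOAT2), against 19.7% (10.9% higher, 8.75% lower). LPGAT1 passed in no comparison within a line, and its changes there ran from -0.10 to 0.08. MBOAT1 changed with inhibitor by 0.005 ± 0.128 in the HCT116 knockout and by 0.04 ± 0.148 in the A375 knockout, intervals too wide to show a small change of this gene. LPCAT3 changed with inhibitor by 0.07 ± 0.066 in the HCT116 knockout and by 0.13 ± 0.059 in the A375 knockout (adjusted p = 0.07404). The A375 value passed without knockout vehicle replicate 2 (0.18, adjusted p = 0.02532).

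Other measures moved with the inhibitor in the knockouts. PTDSS1 fell by 0.46 ± 0.050 on the log2 scale in HCT116 and by 0.12 ± 0.040 in A375, where the call was lost in DESeq2 (adjusted p = 0.05193), without vehicle replicate 1 or 3 (-0.10 and -0.11) and without inhibitor replicate 2 (-0.06, adjusted p = 0.2642). The residual PTDSS2 signal in the A375 knockout was 0.76, 0.83 and 0.59 TPM with vehicle and 1.63, 0.97 and 1.53 TPM with inhibitor, without overlap. It was called higher by 0.89 ± 0.315 (edgeR adjusted p = 0.02885) and by 0.91 ± 0.330 more than in the A375 parent (adjusted p = 0.03908). The difference from the parent did not pass in DESeq2 (adjusted p = 0.08086) or limma-voom (0.08632). It was also lost without replicate 1 of the parent, with vehicle (0.88) or inhibitor (0.87). The same held without knockout replicate 1 or 3, with vehicle (0.95 or 0.78) or inhibitor (0.80 or 0.82). The lowest PTDSS2 expected count in a library was 7. The PTDSS2 rise in the A375 knockout did not pass in DESeq2 (adjusted p = 0.05315) or limma-voom (0.06807), and it was 0.93 or 0.76 and not called when vehicle replicate 1 or 3 was left out, and 0.77 or 0.79 and not called when inhibitor replicate 1 or 3 was. For HCT116 the PTDSS2 change was -0.18 ± 0.172 and did not pass. Of the 6 colon markers tested in HCT116, 2 rose and 4 fell in the knockout with inhibitor, or 100% called against 37.1% of all genes. The summed level of the 12 was 4279 to 4367 TPM, against 4978 to 5229 TPM with vehicle. KRT8, the largest part of that sum, averaged 1938 TPM with inhibitor and 2453 TPM with vehicle. The 2 that rose were EPCAM, at means of 538 and 418 TPM, and CDH1, at 31.5 and 26.4 TPM. Of the 4 melanocyte markers tested in A375, 3 rose in the knockout with inhibitor, or 75% called against 37.5% of all genes. The summed level of the 9 was 477 to 528 TPM, against 373 to 399 TPM with vehicle. MITF was not among the 3 that rose. In the A375 knockout it stood at 10.23 to 11.58 TPM with inhibitor and at 11.25 to 13.53 TPM with vehicle, with overlap. For the inhibitor effect in A375, knockout minus parent, 2 of the 4 markers were called higher and 1 lower. Marker levels also moved with genotype. In A375 the melanocyte sum with vehicle was 471 to 480 TPM in the parent. There 2 of the 4 markers tested were lower in the knockout, or 50% against 16.3% of all genes. For HCT116 the colon sum with vehicle was 4855 to 4948 TPM in the parent. There 4 of the 6 colon markers were higher in the knockout, or 66.7% against 21.3% of all genes. Depth, in units of 1e6 counts, was 6.21 to 7.91 in the HCT116 knockout with inhibitor and 8.83 to 9.11 with vehicle. Their part in the changes of the 9 enzymes, with inhibitor or with genotype, was not tested.

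Further acyltransferases, phospholipases and lysophospholipases were listed by function. With inhibitor in the knockouts they were called in shares of 25% to 39.1%, near or below the share of all genes. Of 14 further acyltransferases, 13 were tested in HCT116, where 4 rose and 1 fell with inhibitor, and 12 in A375, where 1 rose and 2 fell. These are 38.5% and 25% of those tested, against 37.1% and 37.5% of all genes. LCLAT1, which remodels cardiolipin, rose by 0.63 ± 0.060 in the HCT116 knockout (edgeR adjusted p = 7.578e-14). GPAM, a mitochondrial glycerol-3-phosphate acyltransferase, fell there by 0.41 ± 0.064. GPAT3, an enzyme of the same step in the endoplasmic reticulum, rose in both knockouts, by 0.23 ± 0.076 in HCT116 and by 0.41 ± 0.036 in A375. PLAAT3 and AGPAT5 fell in the A375 knockout by 0.30 ± 0.073 and 0.14 ± 0.051. The medians of the list were 0.02 and -0.01, against 0.002 and 0.006 over all genes.

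Of 26 phospholipases and lysophospholipases, 23 were tested in HCT116, where 3 rose and 6 fell with inhibitor in the knockout, and 22 in A375, where 7 rose and 0 fell. That is 39.1% and 31.8%, against the same 37.1% and 37.5% of all genes. In A375 all of these calls were rises, where 18.7% of all genes were called higher and 18.8% lower. PNPLA8, a calcium-independent phospholipase A, stood at 8.38, 8.30 and 8.72 TPM in the HCT116 knockout with vehicle and at 19.0, 18.1 and 18.9 TPM with inhibitor. The A375 knockout held 14.2, 12.8 and 13.3 TPM with vehicle and 20.5, 19.8 and 20.0 TPM with inhibitor. The inhibitor libraries lay above the vehicle libraries in both, and the rises were 1.12 ± 0.084 (adjusted p = 3.477e-18) and 0.55 ± 0.069 (adjusted p = 1.281e-09). GPCPD1, a glycerophosphocholine phosphodiesterase, rose in the HCT116 knockout by 0.70 ± 0.070, and DDHD1, a phospholipase A1 that prefers phosphatidic acid, fell by 0.62 ± 0.060. ABHD2 and ABHD6, serine hydrolases related to ABHD12 and ABHD16A, rose in the A375 knockout by 0.42 ± 0.046 and 0.44 ± 0.094. The inhibitor effect differed between the knockouts for 10 of the 23 enzymes tested, 8 higher and 2 lower in A375, or 43.5% against 19.7% of all genes (10.9% higher, 8.75% lower). PNPLA8 was among the 2, lower in A375 by 0.56 ± 0.109. With vehicle, 0 of these 23 were higher and 4 lower in the HCT116 knockout than in its parent, while 2 of the 13 further acyltransferases were higher and 4 lower. These are 17.4% and 46.2%, against 21.3% of all genes. AGPAT4 and GPAT3, enzymes of phosphatidic acid synthesis, were lower there by 1.14 ± 0.146 and 0.85 ± 0.066. In the parents the inhibitor called 0 of 13 acyltransferases and 0 of 23 phospholipases in HCT116, and 0 of 12 and 0 of 22 in A375.

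**Figure D4:**
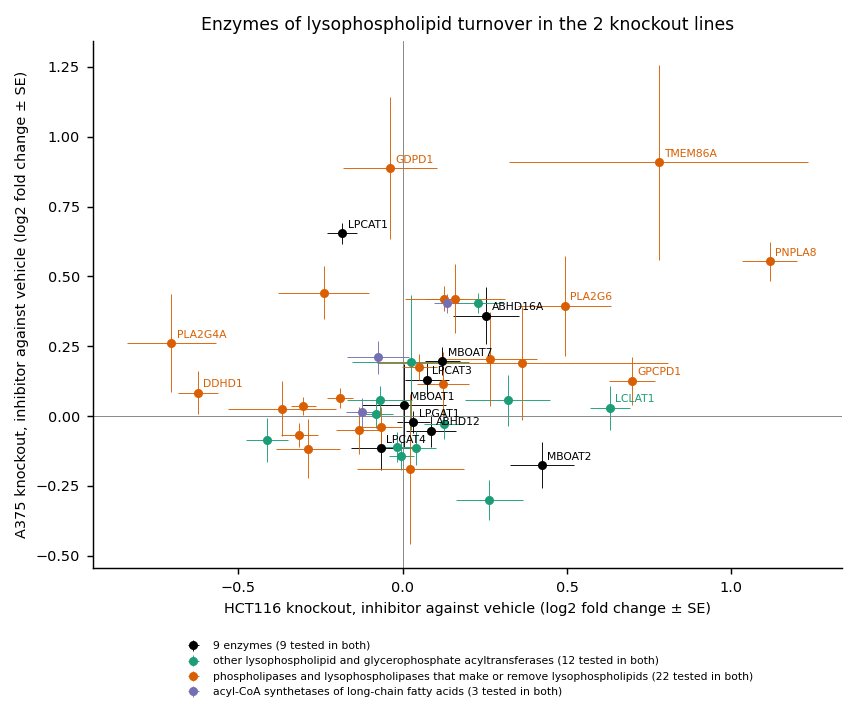
Log2 fold change ± SE with inhibitor in the HCT116 knockout (horizontal axis) and the A375 knockout (vertical axis) for the 9 enzymes (black) and the genes of 3 functional lists tested in both lines. LPCAT1 lies at -0.18 and 0.65, MBOAT2 at 0.42 and -0.17, and PNPLA8 at 1.12 and 0.55.

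LXR and its targets, the list that belongs with LPCAT3, comprised 6 genes, all tested in both lines. With inhibitor 2 of them rose in HCT116 knockout libraries, 3 rose in A375 knockout libraries, and none fell. The shares are 33.3% and 50%, against 37.1% and 37.5% of all genes (17.1% and 18.7% higher). SREBF1, a transcription factor of lipid synthesis, rose by 0.73 ± 0.037 in HCT116 and 0.35 ± 0.036 in A375. ABCA1, a cholesterol exporter, rose by 0.75 ± 0.088 in the A375 knockout and by 0.58 ± 0.089 in the A375 parent (edgeR adjusted p = 7.994e-05). With vehicle, 2 of the 6 were higher and 2 lower in the HCT116 knockout than in its parent, where LPCAT3 was lower and 21.3% of all genes were called. ABCA1 was higher there by 1.06 ± 0.330, and NR1H2, which encodes LXR-beta, was lower by 0.26 ± 0.087.

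Genes were also ranked by how closely their profile followed each member over the 24 libraries, after the mean of each line was subtracted, among 9705 expressed genes. LPCAT1 was most like SEC61A1, a subunit of the translocation channel of the endoplasmic reticulum (Pearson r = 0.958), SERP1, a protein bound to that channel (0.947), and SELENOI, an ethanolamine phosphotransferase (0.947). With inhibitor these 3 rose in the A375 knockout by 0.48 ± 0.028, 0.57 ± 0.034 and 0.39 ± 0.036, beside 0.65 for LPCAT1. For HCT116, SEC61A1 fell by 0.09 ± 0.033 and SELENOI by 0.13 ± 0.042, and SERP1 changed by -0.09 ± 0.042 (adjusted p = 0.07527). MBOAT2 was most like JUN (0.905), IGFBP2 (0.891) and PTP4A1 (0.869), which rose in the HCT116 knockout by 1.21 ± 0.086, 1.73 ± 0.038 and 0.84 ± 0.033. For A375, JUN fell by 0.41 ± 0.066 and IGFBP2 by 0.35 ± 0.046, and PTP4A1 changed by -0.07 ± 0.034 (adjusted p = 0.1092). The libraries share groups, so each r is mostly a contrast between groups and carries no p. These genes were picked by r over the same 24 libraries. Their changes with inhibitor were largely fixed by that choice and are no separate result. By Spearman's rho none of these 6 genes was among the first 3, and SEC61A1 stood at place 5 for LPCAT1 (rho = 0.854).

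**Figure D5:**
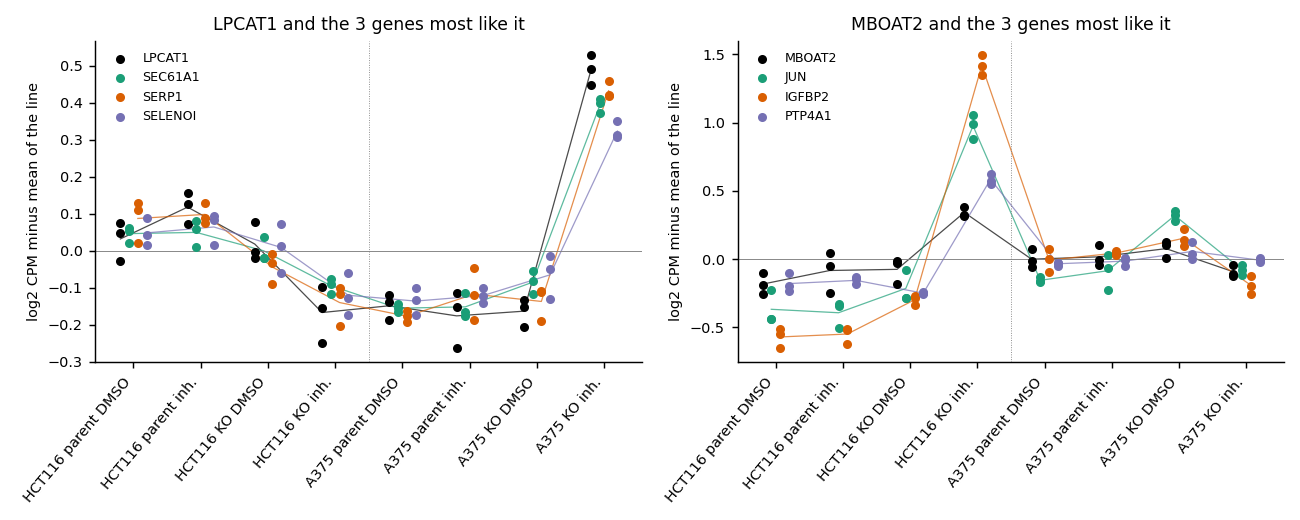
Log2 CPM minus the mean of the line (vertical axis) in each library (points; lines join group means, drawn to guide the eye) for LPCAT1 and MBOAT2 with the 3 genes of highest Pearson r. LPCAT1 and its 3 genes are highest in the A375 knockout with inhibitor, and MBOAT2 and its 3 genes are highest in the HCT116 knockout with inhibitor. The genes were picked by r over these same libraries.

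For the other members the first gene by Pearson r was GNAS for MBOAT7 (0.853), VEGFB for LPCAT3 (0.880), KIFC3 for LPCAT4 (0.792), UBE2B for ABHD16A (0.799), SPRYD4 for ABHD12 (0.844), BBS10 for MBOAT1 (0.739) and EPDR1 for LPGAT1 (0.695). Among the 9 enzymes themselves the highest r was 0.469, between MBOAT7 and ABHD16A, and the lowest was -0.624, between LPCAT3 and ABHD12. LPCAT1 reached at most 0.230 with any other member (LPCAT3).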

How the data were processed

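RNA abundance was measured by poly(A) RNA-seq in 24 libraries, 3 in each of 8 groups, grouped by the sample titles. Reads were processed with STAR 2.4.2a and RSEM 1.2.23 on build hg19, per the submitters' processing notes, with no annotation release or strand setting stated. The authors deposited expected counts, which RSEM estimates for each gene, per the file headers. Levels are the deposited TPM values, scaled by length and depth by the authors. The deposited FPKM values were not used. Of 25343 Entrez identifiers, 25220 were matched to symbols in a RefSeq table of assembly GRCh38.p14, and the 123 others held at most 0.0724% of a library's counts. The expected counts of the 9 members were whole in 24 of 24 libraries.

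Expected counts were rounded, scaled with TMM factors and filtered with edgeR's default filter (minimum count 10, minimum total 15). edgeR 4.0.16 in R 4.3.3 was fitted over the 12 libraries of a line, or over all 24 for contrasts that span the lines, with a mean for each group. The robust quasi-likelihood F test was two-sided, with Benjamini-Hochberg adjustment over all genes tested, and a gene with adjusted p under 0.05 is called. Errors of log2 changes are standard errors. TPM ratios were compared with an exact permutation test (8 comparisons, unadjusted). The edgeR test was run on simulated counts in which a small part of the genes changed. That part was smaller than the share called in the knockouts with inhibitor, so calling at that extent of change was not checked. Members, lists and rules were chosen with earlier results of these data known: the text names the 9 members, PTDSS1 and PTDSS2, up to 3 called genes of each list and comparison with the smallest adjusted p, and the 3 genes of highest Pearson r with each member (log2 CPM, prior count 2, mean of at least 8 CPM). The colon epithelium list was EPCAM, CDH1, KRT8, KRT18, KRT19, KRT20, CDX1, CDX2, CDH17, VIL1, LGALS4 and CEACAM5, and the melanocyte list SOX10, MITF, PMEL, MLANA, TYR, TYRP1, DCT, ERBB3 and S100B, with 1 further gene of that list not reported here. In promoter windows 10 motifs were searched on both strands. No member window held an amino acid response element, sterol response element, ER stress element, LXR direct repeat, AP-1 site or E-box. The CCAAT box was in 3 of the 11 member windows and in 32% of all windows.

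Fits were repeated with other scaling (DESeq2 size factors or library size alone), other filters (none, or a mean of 5 CPM), other tools (DESeq2 1.42.0 and limma-voom from limma 3.58.1) and other samples (the 6 compared, all 24, or 1 fewer), and with the replicate number as a block.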

Additional observations from a re-analysis of the deposited data

Results flagged for a closer look

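The effects below differed between genotypes or between lines by a test of the difference itself (edgeR, adjusted over all genes tested). The inhibitor effect on LPCAT1, knockout minus parent, was -0.27 in HCT116 and 0.68 in A375 on the log2 scale, and the effect in the A375 knockout exceeded that in the HCT116 knockout by 0.84. For MBOAT7 the inhibitor effect in the A375 knockout exceeded that in the A375 parent by 0.31. The inhibitor effect on MBOAT2 was lower in the A375 knockout than in the HCT116 knockout, with a difference of -0.59. The difference between knockout and parent with vehicle, A375 minus HCT116, was -0.32 for MBOAT7, 0.29 for LPCAT3 and 0.39 for LPCAT4. For MBOAT7 the values 0.31 and -0.32 use the same A375 vehicle libraries with opposite sign, so they are not separate results. With 1 knockout line per parent, a difference between the lines cannot be told apart from a difference between these particular knockout lines.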

How the results depend on the processing

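Of the 25 member calls, 19 held under all alternatives run, and the exceptions are MBOAT1 and LPCAT4 for genotype in HCT116, ABHD16A with inhibitor in each knockout, and LPCAT3 and LPCAT4 for the genotype effect between lines. The count of members called for genotype in HCT116 was 3, and 1 in DESeq2. Leaving out 1 library gave 1 to 2 called for the inhibitor effect in HCT116, knockout minus parent, where 1 was called with all libraries. MBOAT7 in the HCT116 knockout with inhibitor passed with library size alone (0.13, adjusted p = 0.04635) and with the 5 CPM filter (0.14, adjusted p = 0.03169), and LPCAT3 in the A375 knockout with library size alone (0.15, adjusted p = 0.03944). Over all genes, DESeq2 called 1798 in place of 2804 for genotype in HCT116 and 1371 in place of 2196 in A375. For the inhibitor in the HCT116 parent edgeR called 0 (530 genes at an unadjusted p under 0.05), against 1 in DESeq2, 4 with no filter, 4 with only the 6 libraries, 1 without inhibitor replicate 1, 2 without inhibitor replicate 3 and 0 in limma-voom. The replicate numbers do not pair the libraries: same-numbered libraries deviated together (correlation over 0.1) in 0 of 18 pairs in HCT116 and 3 of 18 in A375, and in both lines 6 of 18 correlated best with their own number. The replicate block changed no member call and gave 1 gene called in the HCT116 parent.

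Uncalled changes near 0 changed sign under some settings, and the cause was not tested. MBOAT1 with inhibitor in the HCT116 knockout was -0.012 with no filter and -0.002 in limma-voom, LPGAT1 for genotype in A375 was -0.027 with library size alone and -0.003 with only the 6 libraries, LPCAT1 for the genotype effect between lines was 0.011 with no filter, and LPCAT1 between the parents was -0.032 with library size alone. Leaving out 1 library changed the sign of 29 uncalled values, whose smallest adjusted p was 0.3055. For the inhibitor in the HCT116 parent they were LPCAT3 -0.014 to 0.034, ABHD16A -0.13 to 0.036, ABHD12 -0.099 to 0.012 and LPGAT1 -0.012 to 0.037. For the inhibitor in the HCT116 knockout they were MBOAT1 -0.066 to 0.10 and LPCAT4 -0.14 to 0.030. For the genotype in HCT116 they were LPCAT1 -0.043 to 0.012, ABHD16A -0.10 to 0.083 and LPGAT1 -0.004 to 0.042. For the inhibitor effect in HCT116, knockout minus parent they were LPCAT4 -0.003 to 0.16 and LPGAT1 -0.005 to 0.042. For the inhibitor in the A375 parent they were MBOAT2 -0.029 to 0.053, LPCAT1 -0.060 to 0.014 and ABHD16A -0.002 to 0.18. For the inhibitor in the A375 knockout they were MBOAT1 -0.043 to 0.14. For the genotype in A375 they were LPCAT1 -0.026 to 0.017, ABHD16A -0.17 to 0.028, ABHD12 -0.065 to 0.024 and LPGAT1 -0.008 to 0.032. For the inhibitor effect in A375, knockout minus parent they were LPCAT3 -0.023 to 0.071 and LPCAT4 -0.11 to 0.006. For the inhibitor effect between knockouts they were MBOAT1 -0.053 to 0.14 and LPCAT4 -0.14 to 0.027. For the genotype effect between lines they were MBOAT1 -0.011 to 0.24, MBOAT2 -0.082 to 0.010, LPCAT1 -0.021 to 0.030, ABHD16A -0.19 to 0.019 and LPGAT1 -0.039 to 0.007. For the parents with vehicle they were LPCAT1 -0.016 to 0.036. By Spearman's rho, 4 of 9 members kept at least 2 of their 3 most similar genes. Depth limits MBOAT1 most, at 62 to 163 counts a library.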

Other observations

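Lysophosphatidylserine receptors were at or near 0 in these cells: GPR174 and P2RY10 were listed at 0 TPM in all 24 libraries, and GPR34 reached at most 0.48 TPM. MFSD2A, a transporter of lysophosphatidylcholine, stood at 13.1, 13.4 and 12.1 TPM in the HCT116 knockout with vehicle and at 7.41, 7.63 and 7.82 TPM with inhibitor. It fell there by 0.75 ± 0.141 on the log2 scale (edgeR adjusted p = 1.192e-05), and its inhibitor effect in the A375 knockout was higher by 0.77 ± 0.164 (adjusted p = 0.0001594). LPCAT2, which is outside the 9 enzymes, averaged 7.58 to 8.79 TPM over the HCT116 groups and 30.1 to 32.2 TPM over the A375 groups.

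The acyl-CoA synthetases supply the activated fatty acids that the acyltransferases use. Of 5, all tested in HCT116, 2 rose and 1 fell with inhibitor in the knockout, and of 3 tested in A375, 2 rose. These are 60% and 66.7%, against 37.1% and 37.5% of all genes. ACSL3 rose by 0.13 ± 0.038 in the HCT116 knockout and by 0.40 ± 0.034 in the A375 knockout, and the effect was larger in A375 by 0.28 ± 0.052 (edgeR adjusted p = 1.503e-05). ACSL5 was lower in the HCT116 knockout than in its parent with vehicle by 0.99 ± 0.054 and rose with inhibitor by 0.20 ± 0.061.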
